A study of Saccharomyces cerevisiae with 16 samples.

Results

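The methionine salvage pathway of budding yeast is described here through its 5 dedicated enzyme genes, MEU1, MRI1, MDE1, UTR4 and ADI1, which are 5 of 5404 named genes tested on the arrays. They were chosen by pathway, as the enzymes that turn methylthioadenosine back into the keto acid of methionine, and with earlier results of these arrays known. The only measured value in the rule is brightness, since a gene's probe set was selected on its mean signal, and as each gene had 1 probe set it decided nothing. All 5 genes passed into the test.

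Methylthioadenosine is a sulfur-containing nucleoside left over when decarboxylated S-adenosylmethionine gives its aminopropyl group to polyamines. Cells recycle it: Meu1 releases adenine and leaves methylthioribose phosphate, Mri1 isomerises that sugar, Mde1 dehydrates it, Utr4 acts as an enolase and phosphatase that yields an acireductone, and Adi1 oxidises the acireductone to the keto acid, which a transaminase turns into methionine. The pathway thus saves the methylthio group of methionine in cells that make polyamines.

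Transcript levels were measured on 16 Affymetrix arrays hybridised with biotin-labelled copies of total RNA, and the deposited values are log2 signal after GCRMA, which corrects probe signals for background and combines them per probe set. All cells were wild-type strain BY4741, grown in rich glucose medium (YEPD) at 30 °C to early exponential phase. A set of 4 arrays was untreated. The other sets of 4 came from cells treated for 1 h, with acrolein at 0.05 mM, with H2O2 at 0.3 mM, or with NEM at 0.016 mM. Acrolein is a small unsaturated aldehyde and H2O2 is hydrogen peroxide. The labels do not spell out NEM, a common abbreviation of N-ethylmaleimide. Doses differed between the compounds, so differences between treatments compare the arrays as treated and rank no potency. The strain, in every group, is known to lack MET17 (also called MET15), whose enzyme joins sulfide to a homocysteine precursor, besides URA3, LEU2 and part of HIS3. MET17 and URA3 read 1.92, the minimum of the whole table, on 16 of 16 arrays. LEU2 read it on 15 arrays and 1.98 on H2O2 replicate 1, while HIS3 gave a clear signal of 11.06 to 12.27.

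Precision is limited by the 4 arrays in each group. The labels do not state whether these were separate cultures, so the p-values rest on a spread between arrays that could be technical. Adjusted p-values come from limma's moderated test over all 5774 probe sets tested, and a gene was called where its adjusted p was under 0.05. This main fit held no term for the replicate number. Acrolein replicate 1 stood apart in RNA quality, with a 3′ minus 5′ signal of 1.20 over 7 control transcripts against 0.60 to 0.78 on the other 15 arrays, and a mean log2 signal of its ribosomal RNA probe sets of 15.48 against 4.38 to 12.64. The lowest ribosomal RNA signal, 4.38, was that of H2O2 replicate 4. Without both arrays every call of the 5 genes stood, except 1 between acrolein and NEM that is given with ADI1.

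MRI1 had the largest rise of the salvage genes in every treatment, and MDE1, the next enzyme, also rose in all treatments. MEU1 rose after acrolein. UTR4 fell after acrolein and after NEM. ADI1 rose after acrolein and NEM and fell after H2O2. After acrolein 4 of the 5 genes were called higher and 1 lower, in a comparison where 64.1% of all tested probe sets were called, 27.2% higher and 36.9% lower. After NEM 3 were higher and 1 lower, where 58.7% of probe sets were called, 26.4% higher and 32.2% lower. After H2O2 2 were higher and 1 lower, where 19.9% were called, 9.25% higher and 10.6% lower. Treated and control arrays did not overlap for 5 of the 5 genes after acrolein, 4 after NEM and 3 after H2O2, as for 57.9%, 54.5% and 25.3% of all tested probe sets. The median difference of the 5 genes from the control was 0.45, 0.30 and 0.06 on the log2 scale after acrolein, NEM and H2O2, beside -0.05, -0.01 and -0.02 for all tested probe sets. With so large a share of the array called after acrolein and NEM, the counts there say little about these 5 genes, and the description rests on their sizes and directions.

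**Figure D1:**
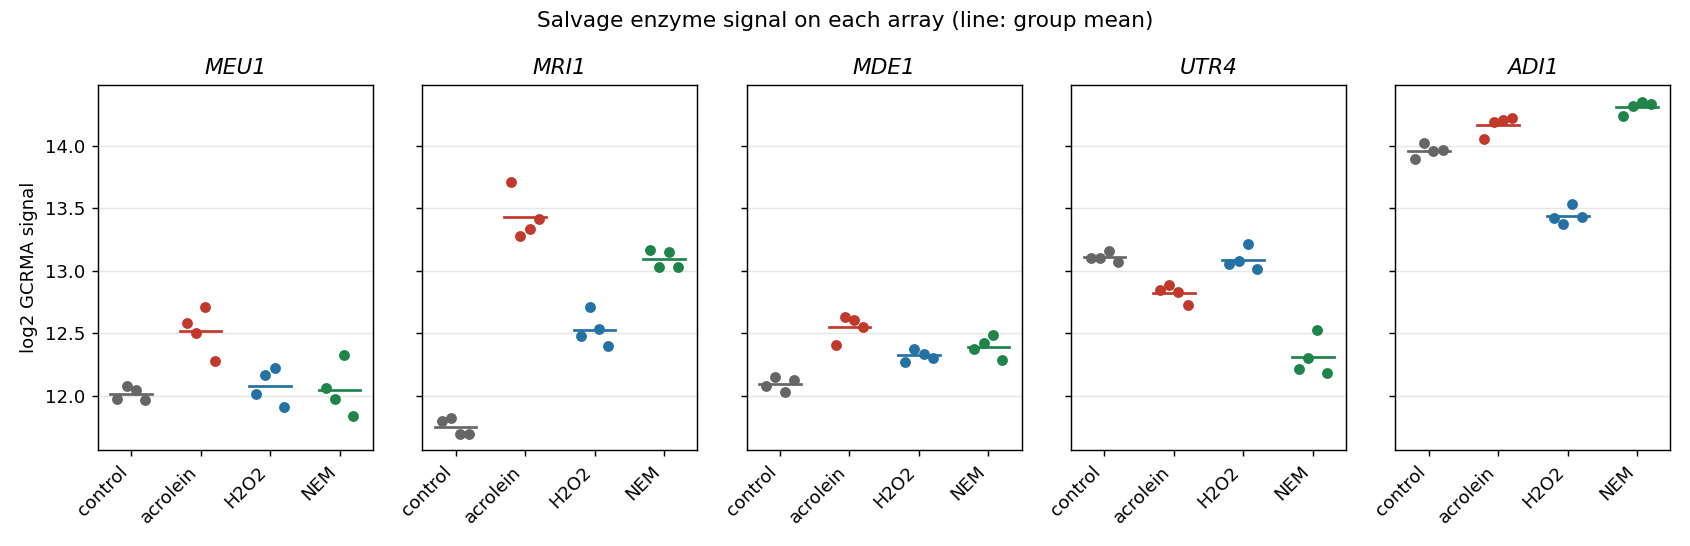
The log2 GCRMA signal of each salvage enzyme gene (vertical axis) is plotted for every array of the control, acrolein, H2O2 and NEM groups (horizontal axis), with a line at each group's mean of 4 arrays. The 4 control arrays of MRI1, 11.70 to 11.82, lie below all treated arrays, and the 4 H2O2 arrays of ADI1, 13.37 to 13.53, lie below all other arrays. Levels of different probe sets are not comparable with each other.

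MEU1 encodes the phosphorylase that opens the pathway. Its log2 signal was 11.97, 12.08, 12.04 and 11.96 on control replicates 1 to 4. It was 12.58, 12.50, 12.71 and 12.28 on the acrolein arrays, 12.01, 12.17, 12.22 and 11.91 on the H2O2 arrays and 12.06, 11.97, 12.33 and 11.83 on the NEM arrays. The acrolein arrays lay above every control and H2O2 array but overlapped the NEM arrays through NEM replicate 3. The mean rose from 12.01 ± 0.05 in the control to 12.52 ± 0.18 after acrolein (SD, n = 4), a difference of 0.50 ± 0.11 (SE) or 1.42-fold (limma adjusted p = 0.00104). After H2O2 the difference from the control was 0.06, with a 95% interval of -0.17 to 0.30, and after NEM it was 0.03, with an interval of -0.20 to 0.26, so a change of up to 1.23-fold upward after H2O2 lies within the interval. The NEM value turned to -0.06 without NEM replicate 3. Acrolein differed from H2O2 by 0.44 ± 0.11 (limma adjusted p = 0.00353) and from NEM by 0.47 ± 0.11 (limma adjusted p = 0.00294), while NEM and H2O2 did not differ beyond their spread (-0.03 ± 0.11, limma adjusted p = 0.858).

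MRI1 encodes the isomerase, the second step. The control arrays read 11.79, 11.82, 11.70 and 11.70, the lowest 4 of its 16 values. The H2O2 arrays read 12.48, 12.71, 12.53 and 12.40, the NEM arrays 13.16, 13.03, 13.15 and 13.03, and the acrolein arrays 13.71, 13.28, 13.34 and 13.41. No group overlapped any other. Relative to the control the gene rose 3.21-fold after acrolein (1.68 ± 0.09 on the log2 scale, limma adjusted p = 2.12e-09), 2.54-fold after NEM (1.34 ± 0.09, limma adjusted p = 1.92e-08) and 1.72-fold after H2O2 (0.78 ± 0.09, limma adjusted p = 2.21e-05). Its rise ranked 130th of the 5774 differences after acrolein, 162nd after NEM and 159th after H2O2.

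The treatments also differed from each other for MRI1. Acrolein exceeded H2O2 by 0.91 ± 0.09 (limma adjusted p = 1.73e-06), NEM exceeded H2O2 by 0.56 ± 0.09 (limma adjusted p = 9.92e-05), and acrolein exceeded NEM by 0.34 ± 0.09 (limma adjusted p = 0.00565). Acrolein replicate 1, the array apart in RNA quality, gave the highest MRI1 value. Without it the difference from the control was 1.59 and that from NEM 0.25 (limma adjusted p = 0.0103), so the order control, H2O2, NEM, acrolein stood.

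MDE1 encodes the dehydratase, the third step. Its control arrays read 12.07, 12.15, 12.03 and 12.12. All 12 treated arrays were higher: 12.40, 12.63, 12.60 and 12.55 after acrolein, 12.27, 12.37, 12.34 and 12.30 after H2O2, and 12.37, 12.42, 12.49 and 12.29 after NEM. The rises were smaller than those of MRI1, at 0.45 ± 0.05 after acrolein or 1.37-fold (limma adjusted p = 6.65e-06), 0.30 ± 0.05 after NEM or 1.23-fold (limma adjusted p = 0.000268) and 0.23 ± 0.05 after H2O2 or 1.17-fold (limma adjusted p = 0.00803). Acrolein exceeded H2O2 by 0.23 ± 0.05 (limma adjusted p = 0.00272), and NEM and H2O2 did not differ beyond their spread (0.07, 95% interval -0.04 to 0.19, limma adjusted p = 0.278). Acrolein exceeded NEM by 0.15 ± 0.05 with overlapping arrays (limma adjusted p = 0.0271). That call ended in a fit of only those groups and on leaving out acrolein replicate 2, acrolein replicate 3, NEM replicate 1 or NEM replicate 4 in turn (0.12 to 0.15, limma adjusted p = 0.0560 to 0.0909). In the opposite way to MRI1, acrolein replicate 1 gave the lowest MDE1 value of its group.

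UTR4 encodes the enolase and phosphatase, the fourth step, and was the salvage gene that fell most. The control arrays read 13.11, 13.10, 13.16 and 13.07, and the H2O2 arrays 13.06, 13.08, 13.21 and 13.02. The acrolein arrays read 12.85, 12.88, 12.83 and 12.72, and the NEM arrays 12.21, 12.30, 12.53 and 12.18. The NEM arrays lay below all other arrays, the acrolein arrays lay between them and the rest, and the control and H2O2 arrays overlapped. After NEM the gene fell by 0.80 on the log2 scale (SE 0.07, 1.75-fold lower, limma adjusted p = 2.94e-07), and after acrolein it fell by 0.29 (SE 0.07, 1.22-fold lower, limma adjusted p = 0.00204). The H2O2 difference was -0.02 with a 95% interval of -0.16 to 0.13 (limma adjusted p = 0.910), and it turned to 0.01 without H2O2 replicate 4. NEM was lower than acrolein, which exceeded it by 0.51 ± 0.07 (limma adjusted p = 5.07e-05). Against H2O2 the difference was -0.78 for NEM (limma adjusted p = 5.13e-07) and -0.27 for acrolein (limma adjusted p = 0.00412).

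ADI1 encodes the acireductone dioxygenase, the last dedicated step. It read 13.90, 14.02, 13.96 and 13.96 on the control arrays and 13.42, 13.37, 13.53 and 13.43 on the H2O2 arrays. The acrolein arrays read 14.05, 14.19, 14.21 and 14.22, and the NEM arrays 14.24, 14.32, 14.36 and 14.34. H2O2 stood lowest, then the control, acrolein and NEM, and no group overlapped any other. After H2O2 the gene fell by 0.52 (SE 0.05, 1.43-fold lower, limma adjusted p = 1.83e-06), the 229th largest fall among the 5774 differences. It rose by 0.35 ± 0.05 after NEM (1.28-fold, limma adjusted p = 1.67e-05) and by 0.21 ± 0.05 after acrolein (1.16-fold, limma adjusted p = 0.00125).

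For ADI1 NEM exceeded H2O2 by 0.88 ± 0.05 (limma adjusted p = 3.85e-09), which is 1.83-fold, and acrolein exceeded H2O2 by 0.73 ± 0.05 (limma adjusted p = 3.11e-08), which is 1.66-fold. Acrolein and NEM differed by -0.15 ± 0.05 (limma adjusted p = 0.0168), a call that ended without acrolein replicate 1 (-0.11, limma adjusted p = 0.0508), whose ADI1 value was the lowest of its group. In the comparisons between treatments, 5 of 5 salvage genes were called between acrolein and H2O2 (55.9% of all tested probe sets), 3 of 5 between NEM and H2O2 (52.4%) and 5 of 5 between acrolein and NEM (49.9%). The arrays did not overlap for 5, 3 and 3 of them, beside 46.9%, 46.5% and 40.2% of all tested probe sets.

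**Figure D2:**
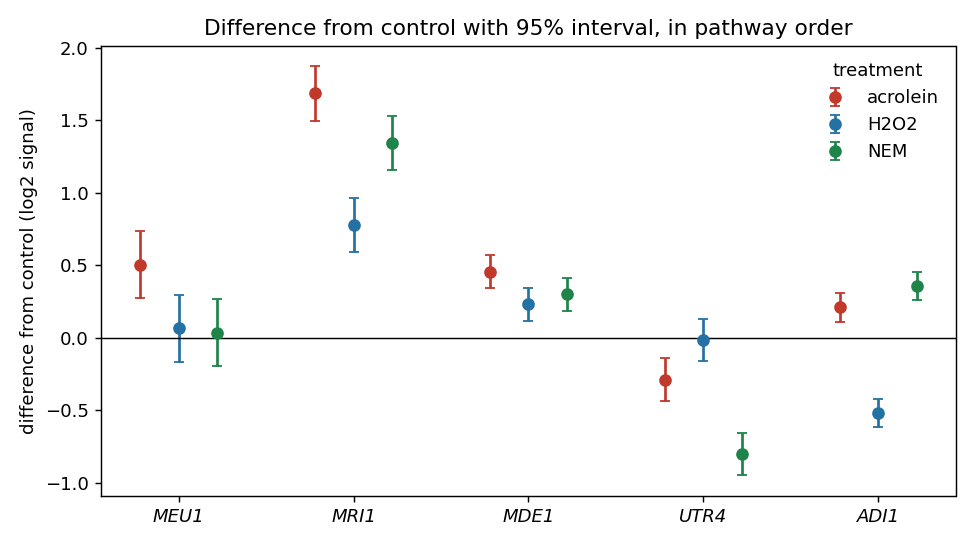
Differences from the control on the log2 scale (vertical axis) are drawn for the salvage genes in pathway order (horizontal axis) and for each treatment, as points with the 95% interval of the limma fit. MRI1 is highest for all treatments, UTR4 lies below 0 for acrolein (-0.29) and NEM (-0.80), and ADI1 lies below 0 for H2O2 (-0.52).

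Over the 4 group means, the levels of MRI1 spanned 1.68 on the log2 scale, those of ADI1 0.88, UTR4 0.80, MEU1 0.50 and MDE1 0.45. The median span of all tested probe sets was 0.51, so MEU1 and MDE1 lay at the middle of the array, and 404 of the 5774 probe sets had a larger span than MRI1. Across the 16 arrays the closest pair was MRI1 and MDE1 (Pearson r = 0.89), and UTR4 and ADI1 ran opposite (r = -0.71). These correlations describe 4 groups of arrays more than 16 independent points. After subtracting the group means the pair MRI1 and MDE1 had r = -0.26 and UTR4 and ADI1 r = 0.26, so the likeness of the first pair and the opposition of the second were not seen within groups. The largest value within groups was 0.80, for MEU1 and UTR4. Deviations from the group means were partly shared by control, acrolein and NEM arrays of the same replicate number. The within-group values therefore do not rest on 16 independent points either.

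**Figure D3:**
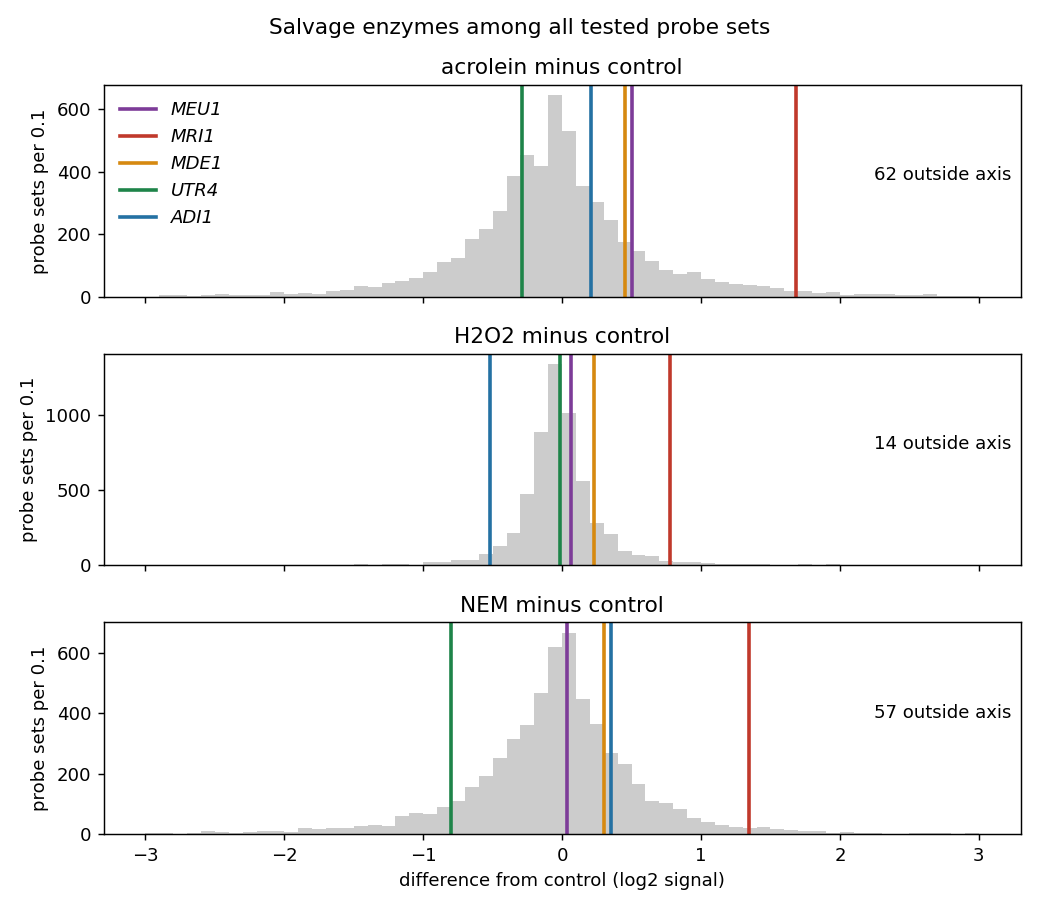
Histograms show the differences from the control on the log2 scale (horizontal axis) of all 5774 tested probe sets (vertical axis, probe sets per bin of 0.1) for each treatment, with a line for each salvage gene. MRI1 lies in the right tail in every panel, ADI1 is in the left tail after H2O2, and 62, 14 and 57 probe sets lie outside the axis for acrolein, H2O2 and NEM.

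Transaminases that can carry out the closing step of the cycle changed in both directions. ARO8, an aromatic aminotransferase, rose by 0.67 ± 0.07 after acrolein (limma adjusted p = 2.26e-06), by 0.58 ± 0.07 after NEM and by 0.33 ± 0.07 after H2O2. BAT1, the mitochondrial branched-chain aminotransferase, fell by 0.87, 1.00 and 0.69 after acrolein, NEM and H2O2 (limma adjusted p = 3.06e-06, 7.62e-07 and 0.000137). Its cytosolic counterpart BAT2 fell by 0.88 after acrolein and by 0.24 after NEM, the latter with overlapping arrays and a call that ended on leaving out any of 4 single arrays (control replicates 1 and 3, NEM replicates 1 and 3, at -0.23 to -0.21). ARO9, the aminotransferase of aromatic amino acid breakdown, fell by 0.62 after acrolein and by 0.53 after NEM. Of the 4 genes 1 was called higher and 3 lower after acrolein, beside 27.2% and 36.9% of all tested probe sets. After NEM 1 was called higher and 3 lower (26.4% and 32.2%), and in some other settings 2 were lower. After H2O2 1 was called higher and 1 lower (9.25% and 10.6%), and in some other settings 2 were lower.

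Polyamine synthesis is the source of methylthioadenosine. After acrolein 3 of its 5 genes were called higher (27.2% of all tested probe sets), SPE1, ornithine decarboxylase, by 0.50 ± 0.09 (limma adjusted p = 0.000186), SPE2, S-adenosylmethionine decarboxylase, by 0.32 ± 0.09, and SPE3, spermidine synthase, by 0.30 ± 0.06. After H2O2 SPE2 was the gene called higher (9.25%), at 0.39 ± 0.09 (limma adjusted p = 0.00823). After NEM none was called higher (26.4%), and SPE2 and SPE4, spermine synthase, were called lower (32.2%), at -0.24 ± 0.09 (limma adjusted p = 0.0378) and -0.53 ± 0.18 (limma adjusted p = 0.0222). Under NEM the calls depended on single arrays, since that of SPE4 ended without control replicate 1 or 3 or without NEM replicate 2 or 4, and that of SPE2 without control replicate 1, 3 or 4 or without NEM replicate 2, 3 or 4. Over the other settings 0 to 2 of the 5 genes were called higher after NEM and 0 to 2 lower. OAZ1, the antizyme that limits ornithine decarboxylase, was not called in any treatment, at 0.17, -0.08 and 0.04 after acrolein, H2O2 and NEM.

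In the methyl cycle, which makes S-adenosylmethionine and regenerates methionine, 6 of 9 genes were called higher after acrolein, 6 after NEM and 2 after H2O2, beside 27.2%, 26.4% and 9.25% of all tested probe sets. Over the other settings 5 to 6 were called higher after acrolein and after NEM, and 0 to 1 lower after acrolein. MET13 read -0.34 ± 0.16 after acrolein, with its arrays below every control array, and was not called (limma adjusted p = 0.0725). MET12 was not called in any treatment, at -0.07, -0.02 and 0.02 after acrolein, H2O2 and NEM. The acrolein call of SAH1, S-adenosylhomocysteine hydrolase, ended with array weights, without control replicate 2 or 4, without acrolein replicate 3, and without the arrays apart in RNA quality. The NEM call of SAM4, which like Mht1 methylates homocysteine, ended without control replicate 2 or 4 or NEM replicate 3. The S-adenosylmethionine synthetase SAM1 rose by 0.56 ± 0.07 after acrolein, 0.78 ± 0.07 after NEM and 0.27 ± 0.07 after H2O2, and the other synthetase, SAM2, by 0.41 ± 0.05 after acrolein and 0.46 ± 0.05 after NEM. MHT1, which methylates homocysteine from S-methylmethionine, rose by 0.78 ± 0.07 after acrolein (limma adjusted p = 4.08e-07) and by 0.89 ± 0.07 after NEM (limma adjusted p = 1.01e-07). MET6, the methionine synthase, rose by 0.45 ± 0.05 after NEM (limma adjusted p = 3.12e-06) and differed by 0.04 after acrolein (limma adjusted p = 0.494). ADO1, the adenosine kinase, rose most after H2O2, by 0.48 ± 0.04 (limma adjusted p = 3.97e-07).

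Genes for the supply of sulfur from sulfate rose most after NEM. The 10 tested genes listed under sulfate assimilation were SUL1, SUL2, MET3, MET14, MET16, MET5, MET10, MET1, MET8 and MET2. The last, MET2, serves the homocysteine precursor and not sulfate itself. All 10 were called higher after NEM, by 1.01 to 3.22 on the log2 scale and with a median of 1.96. In that comparison 26.4% of probe sets were called higher. Among these MET8, a sirohaem synthesis enzyme, rose by 3.22 ± 0.21 and MET16, the PAPS reductase, by 2.40 ± 0.06. After acrolein 7 were called higher and 2 lower, with a median of 0.53, beside 27.2% and 36.9% of all tested probe sets. After H2O2 1 was called higher and 1 lower, with a median of 0.13. These H2O2 counts lay near the shares of all tested probe sets, 9.25% and 10.6%. Over the other settings tried the H2O2 counts ran from 1 to 3 higher and from 0 to 2 lower, and the acrolein count of lower genes from 1 to 2, as the call of MET3, ATP sulfurylase (-0.23, limma adjusted p = 0.0202), ended without control replicate 3 or acrolein replicate 1. Of these 10 genes 10 were called lower after acrolein than after NEM, against 25.8% of all tested probe sets. Of the 5 salvage genes 4, MRI1 among them, were called higher in that comparison, beside 1393 of all 5774 tested probe sets. The other salvage gene, ADI1, was called lower (-0.15), like the sulfate genes. SUL1, a sulfate permease, fell by 1.37 after acrolein (limma adjusted p = 0.00236) and by 1.25 after H2O2 (limma adjusted p = 0.0165), the latter call ending without H2O2 replicate 2 (-1.08, limma adjusted p = 0.0548). Its means there, 5.96 after acrolein and 6.09 after H2O2, were near background, so the sizes of these falls are uncertain. Acrolein replicate 3 read 4.98, below 5.15, the highest value of another yeast's probe sets on these arrays.

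Transsulfuration genes, which interconvert homocysteine and cysteine, were called higher in 4 of 4 cases after acrolein (27.2% of all tested probe sets) and after NEM (26.4%), led by STR3, cystathionine beta-lyase, at 0.96 ± 0.06 and 1.08 ± 0.06. After H2O2 2 of the 4 were called higher (9.25%), CYS3 at 0.35 ± 0.05 and STR2 at 0.26 ± 0.05. The 4 transporters of methionine and its methylated or adenosylated forms were likewise all called higher after acrolein and NEM, beside the same 27.2% and 26.4%, with MUP3, a low-affinity methionine permease, at 1.49 ± 0.09 and 1.88 ± 0.09 and SAM3, the S-adenosylmethionine permease, at 1.01 ± 0.05 and 1.00 ± 0.05. After H2O2, beside 9.25% called higher, MUP3 rose by 0.56 ± 0.09, and MUP1, the high-affinity permease, was called at 0.19 ± 0.06 (limma adjusted p = 0.0393). The MUP1 call ended on leaving out control replicate 2 or 4, H2O2 replicate 2, 3 or 4, with dim probe sets left out, or with the replicate number as a block (0.19, limma adjusted p = 0.0520).

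Among regulators of the sulfur amino acid genes, MET28 and MET32, cofactors of the activator Met4, rose by 1.09 ± 0.11 and 1.01 ± 0.08 after acrolein and by 1.58 ± 0.11 and 1.24 ± 0.08 after NEM. MET30, the F-box protein that restrains Met4, rose by 0.63 ± 0.09 and 0.99 ± 0.09. CBF1, a DNA-binding partner of Met4, fell by 0.92 after acrolein (limma adjusted p = 1.98e-05). After NEM CBF1 read -0.31 ± 0.12 with overlapping arrays (limma adjusted p = 0.0403). That call ended without control replicate 1 or 4 or NEM replicate 1, 2 or 3. MET31 was not called, at 0.06 after acrolein, -0.15 after NEM and -0.05 after H2O2. Of the 6 genes 3 were called higher and 1 lower after acrolein, beside 27.2% and 36.9% of all tested probe sets. After NEM 3 were higher and 1 lower (26.4% and 32.2%). MET4 itself was not called, at 0.04 after acrolein, 0.06 after NEM and 0.00 after H2O2. After H2O2 limma called 0 of the 6 regulators, with values from -0.26 to 0.06, where 19.9% of all tested probe sets were called. At an unadjusted limma p under 0.05 there were 0 of the 6, beside 1896 of the 5774 tested probe sets. Beside these shares a count over 6 genes says little about them. Under the other settings at most 1 was called, as lower.

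**Figure D4:**
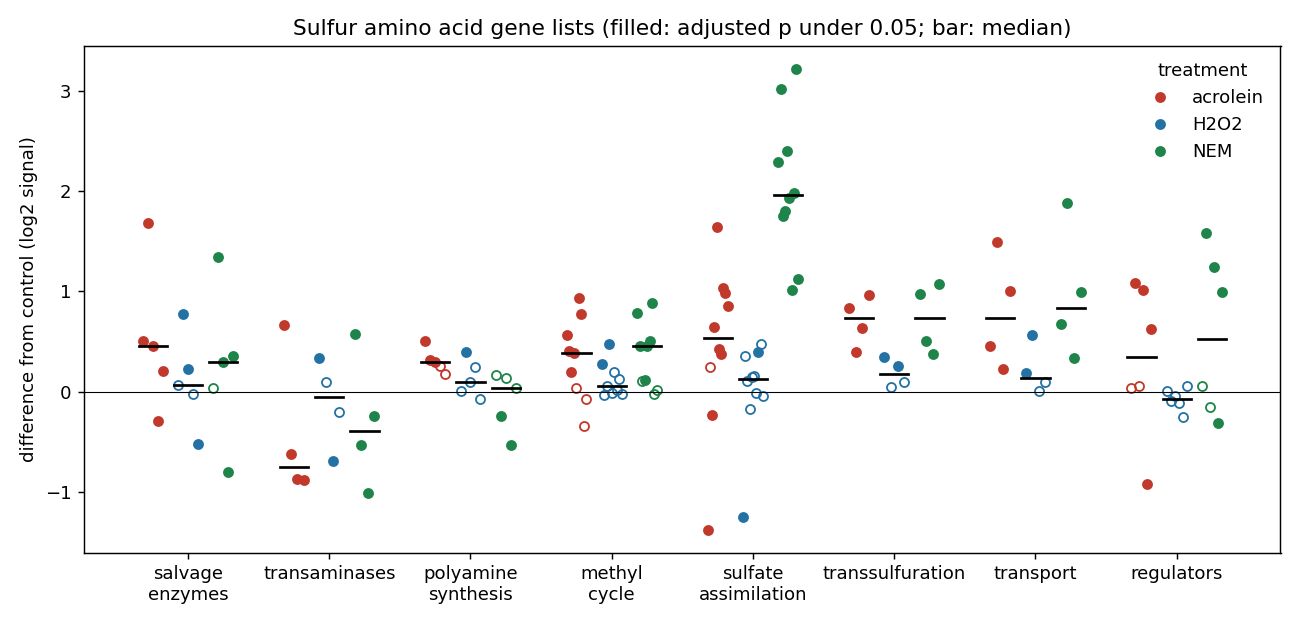
Differences from the control on the log2 scale (vertical axis) are drawn gene by gene for the salvage enzymes and 7 further lists of sulfur amino acid and polyamine metabolism (horizontal axis), with colours for the treatments, filled points for called genes and bars for list medians. Sulfate assimilation after NEM has the highest median, 1.96, and the transaminases after acrolein the lowest, -0.75.

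The nearest tested genes on either side of the salvage genes on the chromosome, from the reference annotation of assembly R64, were called in differing directions. CYC7, the hypoxic cytochrome c, neighbours UTR4 and carries a locus tag of the opposite strand (YEL039C beside YEL038W). It fell by 0.79 after acrolein, 0.92 after NEM and 0.41 after H2O2, the last call ending without control replicate 2 or H2O2 replicate 4. RAD23, on the other side of UTR4, differed by -0.08 after acrolein and rose by 0.36 after NEM. CLB2, a mitotic cyclin and the nearest tested gene after MRI1, fell by 2.45 after acrolein, where MRI1 rose. LSM8 and BNA1 beside MDE1 differed by 0.03 and 0.05 after acrolein and were not called there. PLB1, a phospholipase, and HXT2, a glucose transporter, are the nearest tested genes on either side of ADI1. Between ADI1 and each of them lies 1 annotated gene without a tested probe set. PLB1 rose by 0.47 after NEM and read -0.27 after H2O2, a call that ended without control replicate 1 or 4 or without H2O2 replicate 1, 2 or 3, while HXT2 fell in all treatments, by 0.17 after acrolein and H2O2 and by 0.25 after NEM. PML1 beside MEU1 rose by 0.32 after acrolein and differed by -0.03 after NEM. POM34, a nuclear pore protein on the other side of MEU1, fell by 0.49 ± 0.10 after NEM and differed by -0.12 after H2O2. Its difference of -0.30 ± 0.10 after acrolein was called lower, and that call ended in the fit of only those 2 groups and without control replicate 2. RRG8, the nearest tested gene on the other side of MRI1, fell by 1.20 ± 0.21 after H2O2 and 0.77 ± 0.21 after NEM, and its -0.43 after acrolein was not called.

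Genes with the most similar profile were sought by Pearson correlation over the 16 arrays among the named genes whose values spanned at least 1 on the log2 scale, about 2158 for each search. The values are descriptions of arrays in 4 groups and carry no test. MRI1 was most like RSN1 (r = 0.99), PAU4 (r = 0.98) and YLR460C (r = 0.98). UTR4 was most like ELO1, a fatty acid elongase (r = 0.98), SRB6, a Mediator subunit (r = 0.98), and MDM35, a mitochondrial intermembrane space protein (r = 0.98). ADI1 was most like PCK1, phosphoenolpyruvate carboxykinase (r = 0.97), YOR385W (r = 0.96) and DIA1 (r = 0.96). The PCK1 means were 12.86 in the control, 13.94 after acrolein, 11.45 after H2O2 and 14.45 after NEM. MEU1 was most like RPS8B and RPS9A, which encode proteins of the small ribosomal subunit (r = 0.93 for each), and RLI1, a ribosome recycling factor (r = 0.93). MDE1 was most like MAK10 (r = 0.95), PAU18 (r = 0.94) and TRP4 of tryptophan synthesis (r = 0.94).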

How the data were processed

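The authors deposited log2 signal normalized with GCRMA, per the submitters' processing notes; its version and the handling of replicates are not given in the sources used here. These values were used as they stand, and the medians of the arrays lay between 11.85 and 11.92. Of 10928 probe sets, 213 controls and 1747 annotated to another yeast were left out, as were probe sets constant on all arrays. Names came from the platform annotation through gene identifiers of the R64 gene table (12 symbols updated), and the brightest probe set stood for a gene. This left 5404 genes and 370 unnamed probe sets.

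A linear model with a mean per group was fitted to all 16 arrays in limma 3.58.1 (R 4.3.3), two-sided, with 12 residual degrees of freedom and Benjamini-Hochberg adjustment over all 5774 probe sets. Errors of differences are its standard errors. The script was tested on simulated data with independent noise and few changed probe sets. These arrays differ from that setting, so the simulation checks the code alone. Tables and plots used Python 3.11.15, pandas 2.3.3 and matplotlib 3.10.9.

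The 5 genes, the other lists and the settings were chosen with earlier results of these data known. The genes open to naming were the salvage genes, list members, nearest tested neighbours and the 3 most correlated genes, and the text names a selection of the list members. Deviations from the group mean were correlated between arrays of the same replicate number. For acrolein with control r was 0.20 to 0.45, for NEM with control 0.32 to 0.56 and for acrolein with NEM 0.32 to 0.44. Replicate numbers were taken to pair those groups. The main fit left this pairing out, so its errors and p-values do not use it. H2O2 replicates 3 and 4 correlated with the same numbers of the other groups at 0.39 to 0.69. H2O2 replicates 1 and 2 did so at -0.36 to -0.06, so the H2O2 numbers were not taken to pair. The alternative fit with the replicate number as a block included the H2O2 arrays all the same. Planned promoter and protein features were not used here.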

Additional observations from a re-analysis of the deposited data

How the results depend on the processing

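The counts over the 5 salvage genes were the same in all 18 other settings for 5 of the 6 comparisons. Between acrolein and NEM the count was 5 in the main result and 4 when only those groups were fitted. It was 4 to 5 with 1 array left out in turn, and 4 without both arrays apart in RNA quality. With the replicate number as a block the counts were 5, 3 and 4 for acrolein, H2O2 and NEM against the control, and this block changed no call of a salvage gene. Of 540 single-gene values, 527 kept direction and side of the threshold, 7 lost the call (the acrolein minus NEM values of MDE1 and ADI1) and 6 changed sign, all of them in differences that were not called. UTR4 after H2O2 read 0.00656 without H2O2 replicate 4, alone or together with acrolein replicate 1, and ran from -0.0586 to 0.00656 with 1 array left out. MEU1 after NEM ran from -0.0588 (without NEM replicate 3) to 0.105. MEU1 between NEM and H2O2 ran from -0.123 to 0.0412 (without NEM replicate 4), and was also above 0 without H2O2 replicate 2 (0.00014) or 3 (0.0175). The cause was not tested. The fit without both arrays apart in RNA quality was added after seeing the data, as were the same settings for the other genes, where 49 of 1710 values lost a call and 0 changed sign. The whole-array count of calls after H2O2 ran from 878 to 1555. All salvage signals lay above 5.15, the highest value of the other yeast's probe sets.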
